A study of Mus musculus with 6 samples.

Results

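The antiviral interferon-stimulated genes are described here in mouse CD4+ T cells whose T cell receptor was engaged a second time. The 39 genes were taken by name, as sensors and effectors that interferon is known to induce, and with earlier results of these data known. All 39 were found among the 48440 genes of the count table through GENCODE M21. Messenger RNA was sequenced from 6 libraries of primary helper T cells from spleen and lymph nodes of wild-type mice. All cells had first been activated for 3 days on plates coated with antibodies to CD3 and CD28 and expanded for 5 days in interleukin 2. The 3 stimulated libraries came from cells given both antibodies again for 4 hours, and the 3 unstimulated libraries from cells kept at rest. Both groups are thus previously activated, expanded T cell cultures, and no interferon was added in either. The labels do not say whether replicates came from separate mice or cultures, so p-values reflect the spread among these 6 libraries and nothing wider, and that spread may be technical.

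Interferons are secreted proteins that warn neighbouring cells of a virus. Type I interferons bind the receptor of Ifnar1 and Ifnar2, whose kinases include Jak1 and Tyk2. The signal reaches the factor complex ISGF3, of which Stat2 and Irf9 are parts and which binds a promoter motif called the interferon-stimulated response element. Interferon gamma, the type II interferon made by T cells themselves, acts through Ifngr1, Ifngr2, Jak1 and Jak2 and leads to a different motif. The genes that follow encode proteins that detect viral nucleic acid, block its translation or replication, or mark proteins with the ubiquitin-like modifier Isg15. Many of them are set at low levels in resting cells.

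Promoter stretches of 8 members are shown as examples of the response element. They belong to 6 genes that rose, to Ifit1bl1, a relative of Ifit1 that did not pass the test, and to Oas1g, a near copy of Oas1a with too few reads to be tested. They are RefSeq sequences of GRCm38.p6, written 5′ to 3′ on the gene's strand, and lie upstream of the annotated start. Capitals mark each match, on either strand, of the core GAAANNGAA. Overlapping matches run together as 1 block.
Isg15: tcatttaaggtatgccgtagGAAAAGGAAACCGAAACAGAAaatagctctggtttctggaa
Rsad2: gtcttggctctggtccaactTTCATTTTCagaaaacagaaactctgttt
Ifit1: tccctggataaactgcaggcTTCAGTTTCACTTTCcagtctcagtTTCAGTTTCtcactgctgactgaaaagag
Ifit3: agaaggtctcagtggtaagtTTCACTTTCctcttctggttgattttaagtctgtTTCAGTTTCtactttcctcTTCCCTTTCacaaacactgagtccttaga
Ifit3b: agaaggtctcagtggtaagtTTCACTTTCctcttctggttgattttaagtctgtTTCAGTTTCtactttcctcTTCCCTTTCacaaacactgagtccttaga
Ifit1bl1: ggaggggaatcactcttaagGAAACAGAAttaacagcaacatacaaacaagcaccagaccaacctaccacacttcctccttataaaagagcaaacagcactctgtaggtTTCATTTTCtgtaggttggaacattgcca
Oas1a: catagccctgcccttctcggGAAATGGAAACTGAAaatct
Oas1g: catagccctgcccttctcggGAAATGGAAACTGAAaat

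The stretch of Isg15 lies at chr4:156200856-156200916 on the minus strand, ending 38 bases before the start, and holds 3 overlapping matches. That of Rsad2 is at chr12:26456543-26456591 (minus) with 1 match, and that of Ifit1 at chr19:34640760-34640833 (plus) with 3. The stretches of Ifit3 at chr19:34583354-34583455 (plus) and of its copy Ifit3b at chr19:34607750-34607851 (plus) are identical over all 102 bases. Ifit1bl1, at chr19:34602043-34602180 (minus), holds 2 matches set far apart. The stretches of Oas1a at chr5:120907526-120907565 (minus) and Oas1g at chr5:120887614-120887651 (minus) differ only in length, 40 and 38 bases.

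Promoter windows around annotated starts, as RefSeq gives them, were at hand for 28 of the 39 members. The response element core stood in at least 1 window of 15 members, or 53.6%, against 8.73% of the 9663 tested genes with a window. The interferon gamma motif TTCNNNGAA was found in 5 members (17.9%, against 8.18% of those genes) and the NF-kB core GGANTTTCC in 1, Isg15 (3.57% against 1.68%). Each motif was sought on both strands. Among members with a window, the response element core was present in 11 of the 22 that rose and in 3 of the 5 that did not pass the test. A match is a string of letters, not a shown binding site, and copied genes such as Ifit3 and Ifit3b share their matches.

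Restimulation raised most of these genes. Of the 39 members, 38 had enough reads to be tested. By the quasi-likelihood test of edgeR, adjusted after Benjamini and Hochberg over all 13314 tested genes, 31 rose and 7 did not pass an adjusted p of 0.05. For all tested genes, 38.4% rose and 39.1% fell. No member fell in this fit, also at an unadjusted p of 0.05, nor with DESeq2 or limma-voom. Under some other settings 1 (Ifi27l2a) or 2 (Ifit1bl1 and Sp100) fell, as the closing section gives. By glmTreat, 26 members rose by significantly more than 2-fold, against 17.4% of all tested genes. The median log2 fold change of stimulated over unstimulated cells was 2.34 over the tested members and -0.043 over all tested genes. In 33 members the 3 stimulated libraries lay above the 3 unstimulated ones without overlap, against 39.4% of all tested genes. The groups overlapped for the other 5. As the members were chosen with earlier results of these data known, the comparisons with all tested genes are descriptions only.

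Compared within replicate numbers, the stimulated library was higher for 37 members under number 1, 34 under number 2 and 35 under number 3. The same counts were not made over all tested genes. The labels do not state pairing, and same-numbered libraries deviated together only weakly under number 2 (correlation 0.132). The main test did not use the replicate numbers. The median log2 differences were 2.45, 2.01 and 2.30. Summed over all 39 members, normalised read counts (CPM, scaled to the size of each library) came to 9520, 5797 and 6821 in stimulated libraries 1, 2 and 3, and to 2794, 2508 and 2448 in unstimulated libraries 1, 2 and 3. Each level is relative to the rest of its library, and in bulk samples fewer cells of a type and less RNA per cell cannot be told apart.

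**Figure D1:**
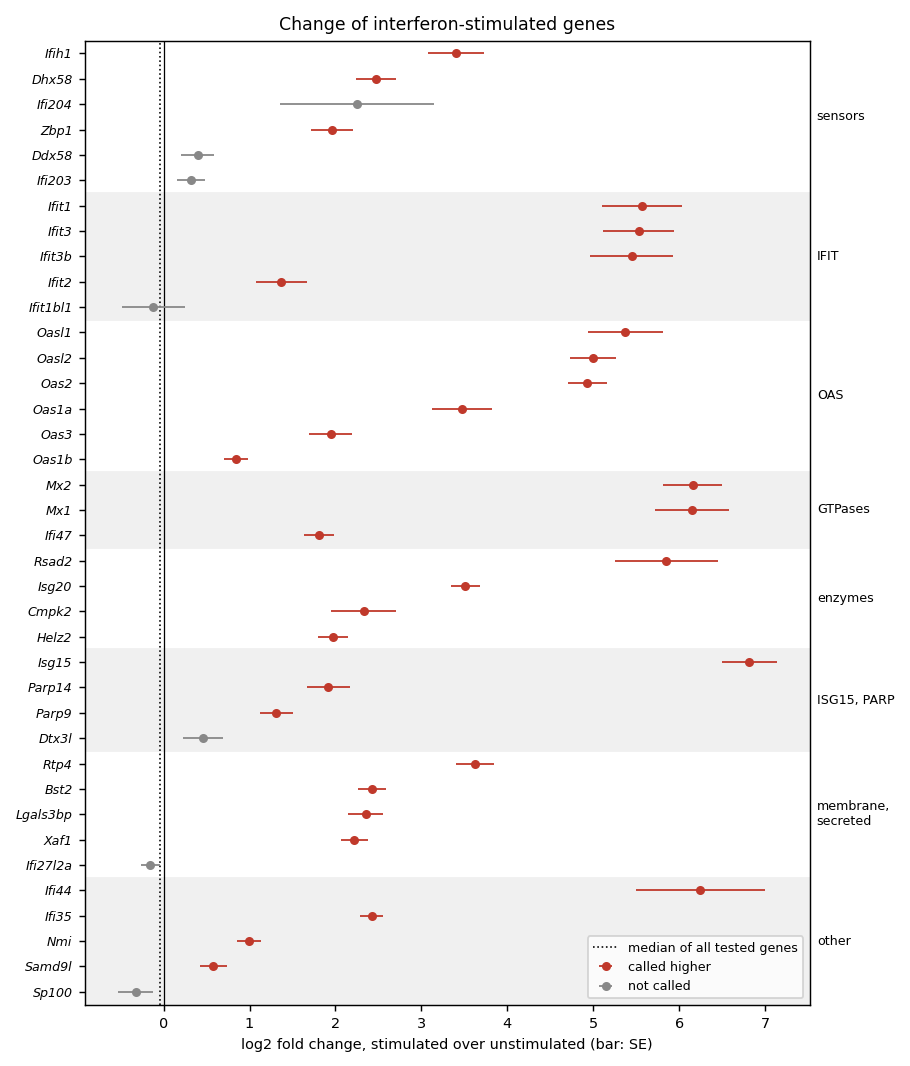
Log2 fold change of stimulated over unstimulated cells with its SE for the 38 tested members, ordered by role. Red points passed the test and grey points did not, and the dotted line is the median of all tested genes (-0.043). Isg15 lies farthest to the right at 6.81, and 7 grey points lie between -0.33 and 2.25.

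Of the 6 sensors of foreign nucleic acid 3 rose and 3 did not pass, a share that rose not far from the 38.4% of all tested genes. Ifih1, which encodes the long double-stranded RNA sensor MDA5 (ENSMUSG00000026896, chr2:62595798-62646255 in GRCm38), had 234, 120.2 and 114 CPM in the stimulated libraries against 17.1, 14.1 and 12.9 CPM in the unstimulated ones. Its log2 fold change was 3.41 (SE 0.33; edgeR, adjusted p = 7.35e-05). Every stimulated library was several times above every unstimulated one. The regulator of the same sensors Dhx58, or LGP2, had 179.5, 96.6 and 116.5 CPM in stimulated and 25.25, 22.8 and 22.8 CPM in unstimulated libraries (log2 fold change 2.47, SE 0.23). Zbp1, a sensor of left-handed nucleic acid that can start cell death, had 295, 165 and 209 CPM after stimulation against 71.0, 52.0 and 48.5 CPM at rest. Its log2 fold change was 1.97 (SE 0.24; edgeR, adjusted p = 0.000221).

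Ddx58, which encodes RIG-I, the sensor of uncapped viral RNA ends, was present in both groups. It had 185, 108.5 and 118 CPM in stimulated against 107.5, 108 and 96.1 CPM in unstimulated libraries, and the groups did not overlap, though replicate 2 was nearly equal in both. The log2 fold change of 0.40 (SE 0.19) did not pass edgeR's test (adjusted p = 0.0919), but did with DESeq2 (adjusted p = 0.0298) or without stimulated replicate 2 (adjusted p = 0.0244; 0.0244 to 0.263 across alternatives).

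The remaining sensors belong to the PYHIN family of DNA-binding proteins. Ifi203 had 249, 165 and 254 CPM in stimulated and 171, 198 and 165 CPM in unstimulated libraries, with overlapping groups (log2 fold change 0.32; edgeR, adjusted p = 0.108). It passed with DESeq2 (adjusted p = 0.0468), without replicate 2 (0.00291) and without stimulated replicate 2 (0.00204; up to 0.535 across alternatives). Ifi204 had 24.5, 11.1 and 18.3 CPM after stimulation and 4.64, 6.51 and 0.157 CPM at rest. The groups did not overlap, yet unstimulated replicate 3 held only 5 reads where replicates 1 and 2 held 146 and 206. The log2 fold change of 2.25 (SE 0.89) did not pass (edgeR, adjusted p = 0.0627). Without unstimulated replicate 3 it was 1.68 and passed (edgeR, adjusted p = 0.0082), as it did without replicate 3 (0.0341), with limma-voom (0.0141) or a filter of 1 CPM (0.0475; up to 0.346 across alternatives). The log2 fold change was larger without unstimulated replicate 2 (2.90), without replicate 2 (3.16) and with limma-voom (3.31). Ifi204 shares 20% of its 50-base words with other genes, 14.8% with its neighbour Ifi211. That gene, named after its values were seen, was also nearly silent in unstimulated replicate 3 (1.53, 1.83 and 0.0314 CPM at rest). Reads of both are therefore uncertain. Ifi203 likewise shares 12.4% of its 50-base words with other genes, 8.85% with Ifi203-ps, so its reads are not fully separate either.

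**Figure D2:**
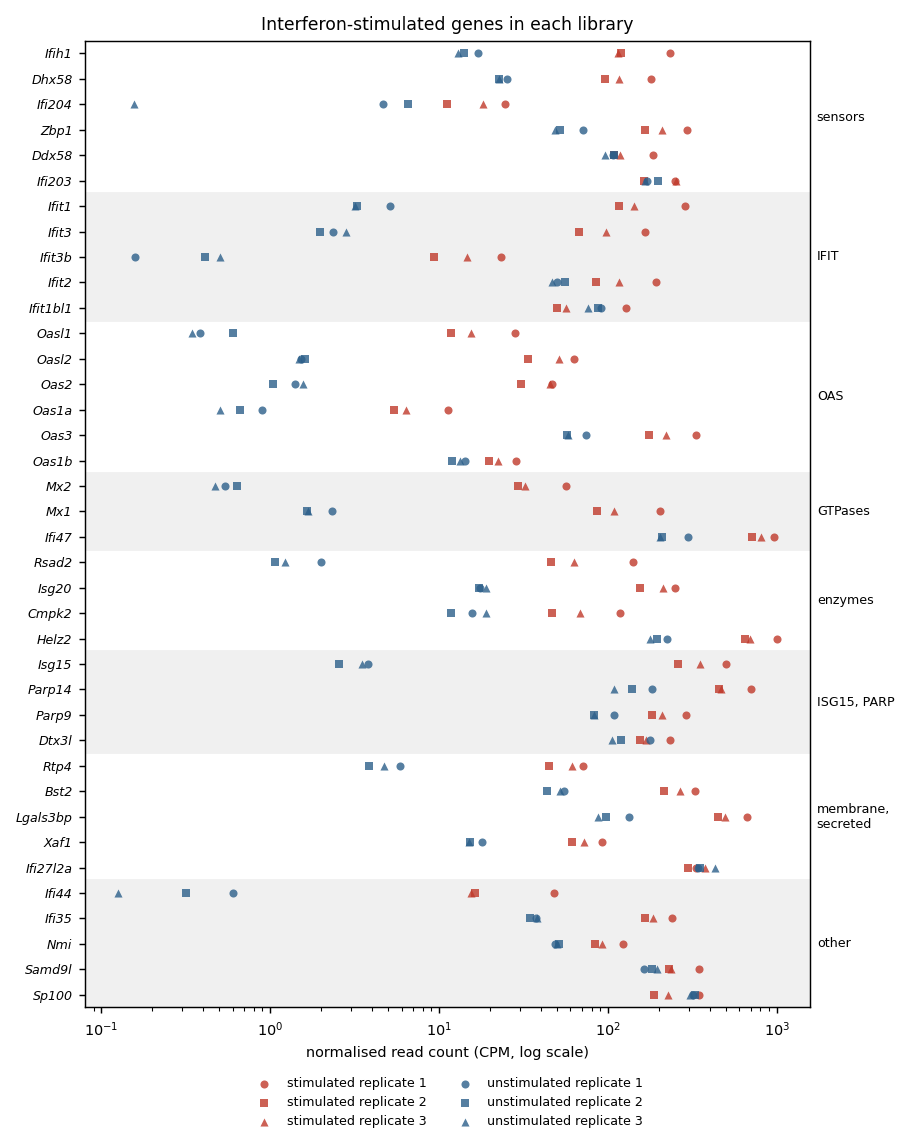
Normalised read count in CPM on a log axis for the 38 tested members in each of the 6 libraries, red for stimulated and blue for unstimulated, with 1 symbol per replicate number. For most members the red points form a group to the right of the blue ones, with stimulated replicate 1 outermost. Oas1g had too few reads for the test and is not drawn.

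The IFIT proteins bind viral RNA that lacks the host's cap marks and keep it from being translated. The 5 members lie together within 99 kb on chromosome 19 (34550694 to 34650009). Ifit1 had 288, 117 and 142 CPM in stimulated against 5.09, 3.25 and 3.17 CPM in unstimulated libraries (log2 fold change 5.57, SE 0.46; edgeR, adjusted p = 4.63e-05). Ifit3, which partners Ifit1, had 165, 67.6 and 97.4 CPM against 2.35, 1.96 and 2.83 CPM at rest (log2 fold change 5.53, SE 0.41). The copy Ifit3b followed at a lower level, with 23.4, 9.33 and 14.6 CPM after stimulation and 0.159, 0.411 and 0.5025 CPM at rest. Ifit3 and Ifit3b share 51.2% and 44.5% of their 50-base words with each other, so their separate counts are uncertain.

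The other genes of that locus did not move in the same way. Ifit2 was already at 50.6 ± 4.71 CPM at rest and averaged 131 ± 55.3 CPM after stimulation (SD, n = 3 each; log2 fold change 1.37, SE 0.29; edgeR, adjusted p = 0.00441). The replicate block ended its call (adjusted p = 0.0569), as did leaving out both libraries of replicate 3 (0.0748; 0.000204 to 0.0748 across alternatives). Ifit1bl1, a relative of Ifit1 that sits between Ifit3 and Ifit3b, had 128, 50.03 and 56.2 CPM in stimulated and 90.8, 87.2 and 76.6 CPM in unstimulated libraries. Only stimulated replicate 1 lay above the resting range, and the other 2 lay below it (log2 fold change -0.12, SE 0.37; edgeR, adjusted p = 0.779). Without stimulated replicate 1 the gene fell by 0.67 (adjusted p = 0.000372), and without stimulated replicate 2 it was 0.13 higher (adjusted p = 0.743; 6.63e-05 to 0.994 across alternatives).

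OAS enzymes make short adenylate chains in response to double-stranded RNA, which start the breakdown of RNA. All 6 tested genes of the family rose, where 38.4% of all tested genes did. Oas2 had 46.65, 30.5 and 45.7 CPM in stimulated against 1.40, 1.04 and 1.57 CPM in unstimulated libraries. Its log2 fold change of 4.93 (SE 0.22) had the smallest adjusted p of the members (edgeR, 1.59e-07). The OAS-like Oasl1, known in the mouse to restrain translation of Irf7, had 28.2, 11.75 and 15.4 CPM against 0.382, 0.600 and 0.3455 CPM at rest. Oasl2 had 62.8, 33.5 and 51.6 CPM against 1.53, 1.61 and 1.48 CPM at rest. They rose by 5.37 (SE 0.44) and 5.00 (SE 0.27) on the log2 scale.

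Oas3 averaged 243 ± 82.3 CPM in stimulated and 63.2 ± 9.16 CPM in unstimulated cells, a log2 fold change of 1.94. Oas1b, annotated as a polymorphic pseudogene, averaged 23.55 ± 4.50 and 13.15 ± 1.08 CPM (SD, n = 3 each; log2 fold change 0.84, SE 0.14). Oas1a rose by 3.48 (SE 0.35), to 7.68 ± 3.14 CPM in stimulated cells, against 0.6855 ± 0.195 CPM in unstimulated cells. Its near copy Oas1g had 5, 0 and 2 reads in the stimulated libraries and none in the unstimulated ones, and was not tested. As Oas1a shares 57.6% of its 50-base words with Oas1g, the split between them is uncertain.

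The dynamin-like GTPases Mx1 and Mx2 trap viral nucleocapsids. Mx1 (ENSMUSG00000000386, chr16:97447035-97462907) had 204.5, 86.5 and 109 CPM after stimulation against 2.32, 1.64 and 1.67 CPM at rest. Mx2, annotated as a polymorphic pseudogene, had 56.2, 29.4 and 32.4 CPM against 0.541, 0.632 and 0.471 CPM at rest. Both rose by 6.15 on the log2 scale (SE 0.43 and 0.35; edgeR, adjusted p = 1.45e-05 and 1.35e-06). The immunity-related GTPase Ifi47 was abundant in both groups, with 961, 711 and 804 CPM in stimulated and 297, 209 and 202 CPM in unstimulated libraries (log2 fold change 1.81, SE 0.17).

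Among enzymes that act on nucleotides and RNA all 4 rose, beside 38.4% of all tested genes. Rsad2, or viperin, makes a chain-terminating nucleotide. It had 140.5, 45.9 and 62.6 CPM in stimulated and 2.00, 1.07 and 1.23 CPM in unstimulated libraries (log2 fold change 5.85, SE 0.60; edgeR, adjusted p = 0.000203). Stimulated replicate 1 was far above the other 2, and without it the rise was 37.9-fold in place of 57.8-fold. Its genomic neighbour Cmpk2, a mitochondrial nucleotide kinase, averaged 77.8 ± 36.3 CPM against 15.5 ± 3.57 CPM at rest (log2 fold change 2.33). The RNA exonuclease Isg20 had 248, 155 and 212 CPM after stimulation and 17.5, 17.3 and 19.0 CPM at rest (log2 fold change 3.51, SE 0.17). The helicase Helz2 had 997, 649 and 698 CPM and 224, 194 and 177.5 CPM at rest, and rose by 1.98 (SE 0.17).

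Isg15, which is joined to target proteins as ubiquitin is, showed the largest log2 fold change of the members. It had 500.5, 261 and 348.5 CPM in the stimulated libraries and 3.78, 2.56 and 3.52 CPM in the unstimulated ones (ENSMUSG00000035692, chr4:156199424-156200818). The change of 6.81 (SE 0.32; edgeR, adjusted p = 1.12e-06) ranked 39 among all 13314 tested genes by size. The ADP-ribosyltransferase Parp14 had 706, 454 and 464 CPM and 183.5, 138 and 109 CPM at rest (log2 fold change 1.92, SE 0.25). Parp9 and the ubiquitin ligase Dtx3l form a complex, and their genes start head to head, overlapping by 458 exonic bases on opposite strands. Parp9 rose by 1.31 (SE 0.19), with 290, 182 and 209.5 CPM in stimulated and 109, 82.9 and 82.35 CPM in unstimulated libraries. Dtx3l had 232, 154 and 168 CPM against 177, 119 and 106 CPM at rest. Its groups overlapped and the change of 0.46 (SE 0.23) did not pass (edgeR, adjusted p = 0.106), but each stimulated library lay above the unstimulated one of the same number. Dtx3l passed under the replicate block (adjusted p = 5.98e-05), without replicate 1 (0.000169), without unstimulated replicate 1 (0.0078) and with DESeq2 (0.0267; up to 0.331 across alternatives).

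Of 5 effectors at membranes, in mitochondria or secreted, 4 rose, beside 38.4% of all tested genes. Bst2, or tetherin, holds budding virus particles at the cell surface. It had 327, 214 and 266 CPM in stimulated and 54.6, 43.4 and 52.3 CPM in unstimulated libraries (log2 fold change 2.42, SE 0.17). Rtp4 had 71.3, 44.6 and 61.6 CPM against 5.85, 3.82 and 4.74 CPM (log2 fold change 3.62, SE 0.22). Xaf1, a partner of the apoptosis inhibitor XIAP, had 92.1, 61.0 and 72.6 CPM against 18.1, 15.3 and 15.04 CPM. The secreted glycoprotein Lgals3bp averaged 538 ± 115.5 CPM against 105.6 ± 24.0 CPM at rest. In each of these genes all stimulated libraries stood above all unstimulated ones. Ifi27l2a, a small membrane protein, did not follow, with 334, 298 and 376 CPM after stimulation and 343.5, 351 and 428 CPM at rest. The groups overlapped (log2 fold change -0.16, SE 0.11; edgeR, adjusted p = 0.225). Each stimulated library was, however, below the unstimulated one of the same number. The replicate block called Ifi27l2a lower (adjusted p = 0.0339), as did scaling by library size alone (adjusted p = 0.0442) or without the 20 most abundant genes (adjusted p = 0.0388; 0.0339 to 0.615 across alternatives).

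Ifi44, named for its induction and of less certain role, was nearly silent at rest. It had 48.2, 16.35 and 15.5 CPM in stimulated and 0.604, 0.316 and 0.126 CPM in unstimulated libraries. Its rise of 6.24 (SE 0.75; edgeR, adjusted p = 0.000305), or 75.8-fold, was 45.4-fold without stimulated replicate 1 and 119-fold without unstimulated replicate 1. Ifi35 had 238.5, 165 and 185 CPM against 37.3, 34.6 and 37.9 CPM at rest (log2 fold change 2.42, SE 0.13). Its binding partner Nmi had 123, 83.5 and 92.6 CPM against 48.85, 51.3 and 50.2 CPM, a log2 fold change of 0.99 (SE 0.13). Samd9l, a restrictor of poxviruses, averaged 270.3 ± 63.8 CPM in stimulated and 181 ± 15.8 CPM in unstimulated cells (log2 fold change 0.58; edgeR, adjusted p = 0.00952). The replicate block ended that call (adjusted p = 0.0595; 0.000225 to 0.0595 across alternatives). Sp100, a component of nuclear bodies, had 345, 189 and 226 CPM against 319, 328 and 304 CPM at rest. Stimulated replicate 1 was above and the other 2 below the resting range (edgeR, adjusted p = 0.185). Without stimulated replicate 1, Sp100 fell by 0.61 (adjusted p = 0.000457; 8.1e-05 to 0.608 across alternatives).

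Levels of different genes were compared per length, as TPM, the share of a library scaled by union exon length. Ifi27l2a had the highest mean of the members in both groups, with 2151 ± 251 TPM in stimulated and 2636 ± 265 TPM in unstimulated cells (SD, n = 3 each). Isg15 ranked 2 in stimulated cells, at 1452 ± 478 TPM, and 22 in unstimulated cells, at 14.2 ± 2.76 TPM. In stimulated cells Ifi47 (989.8 ± 153 TPM), Bst2 (884 ± 188 TPM) and Lgals3bp (561 ± 121 TPM) followed. The ranges of mean ± SD in stimulated cells overlapped between Ifi27l2a and Isg15, and among Isg15, Ifi47 and Bst2. Within every single stimulated library, however, reads over exon length gave the same order, Ifi27l2a, Isg15, Ifi47 and Bst2. A mean over 10 TPM was reached by 38 members in stimulated and 24 in unstimulated cells, and a mean over 100 TPM by 19 and 7. The 14 tested members with under 5 CPM at rest had log2 fold changes from 2.25 to 6.81, and the 24 at or over 5 CPM from -0.33 to 3.51. This comparison uses the resting level on both sides and is a description only.

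**Figure D3:**
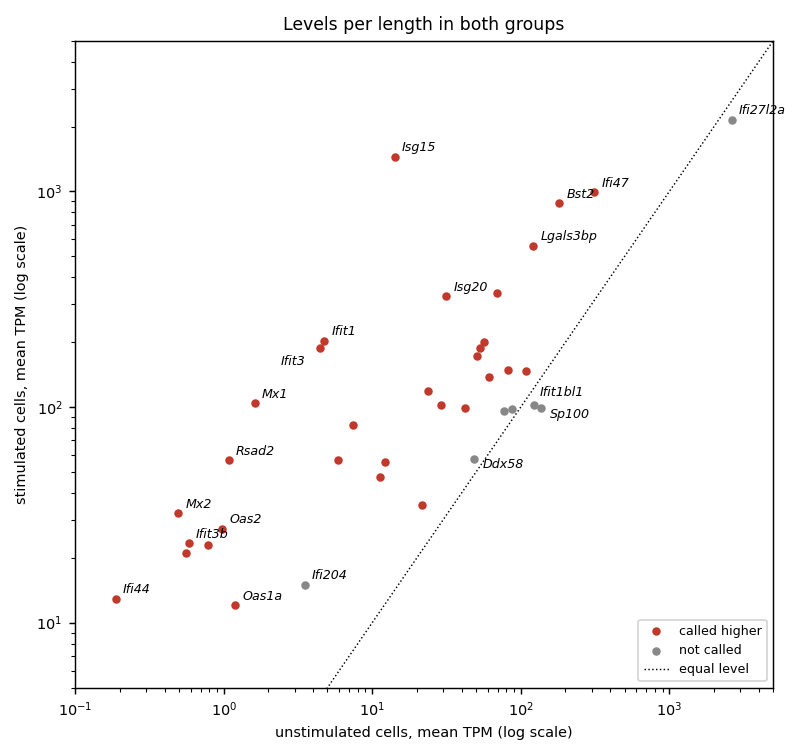
Mean TPM per member in stimulated cells (vertical) against unstimulated cells (horizontal), both on log axes, for the 38 tested members. Red points rose, grey points did not pass the test, and the dotted line marks equal levels. Isg15 stands far above the line, and Ifi27l2a has the highest mean in both groups and lies close to it.

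The stimulated libraries differed from each other in the same direction across the members. Stimulated replicate 1 was highest for 36 of the 38 tested members, where it was highest for 37.1% of all tested genes, and stimulated replicate 2 was lowest for 36. The order was replicate 1, then 3, then 2 for 34 members. Over the 31 members that rose, the ratio of stimulated replicate 1 to stimulated replicate 2 had a median of 1.86 and ran from 1.35 (Ifi47) to 3.06 (Rsad2). The median log2 difference of stimulated replicate 1 from the other 2 was 0.68 over members and 0.006 over all tested genes. For stimulated replicate 2 it was -0.57 over members and 0.013 over all tested genes. At rest replicate 1 was highest for 21 of the 38 tested members, against 37.5% of all tested genes. Its median log2 difference was 0.18 over members and -0.004 over all tested genes. Leaving out stimulated replicate 1 changed no call among the 31 that rose and gave a median log2 fold change of 2.11 over the members.

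Transcripts of interferons themselves stood beside these differences. Interferon gamma, from Ifng, had 67.8, 58.0 and 77.3 CPM in stimulated and 0.3498, 0.411 and 0.1885 CPM in unstimulated libraries (log2 fold change 7.72, SE 0.21; edgeR, adjusted p = 6.93e-09). It was highest in stimulated replicate 3, not in replicate 1. The 20 type I and III interferon genes together held 48, 16 and 26 reads in stimulated and 4, 4 and 0 reads in unstimulated libraries. Without Ifnb1 they held 31, 11 and 10 reads in stimulated libraries, too few to rank replicates 2 and 3. Interferon beta, from Ifnb1, had 17, 5 and 16 of the reads in stimulated libraries and 2 in all at rest, a ratio of 19.1 (95% exact counting interval 4.93 to 163). No gene of that list had enough reads to be tested, and 11 had none. Whether interferon transcripts bear on the differences between libraries was not tested.

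**Figure D4:**
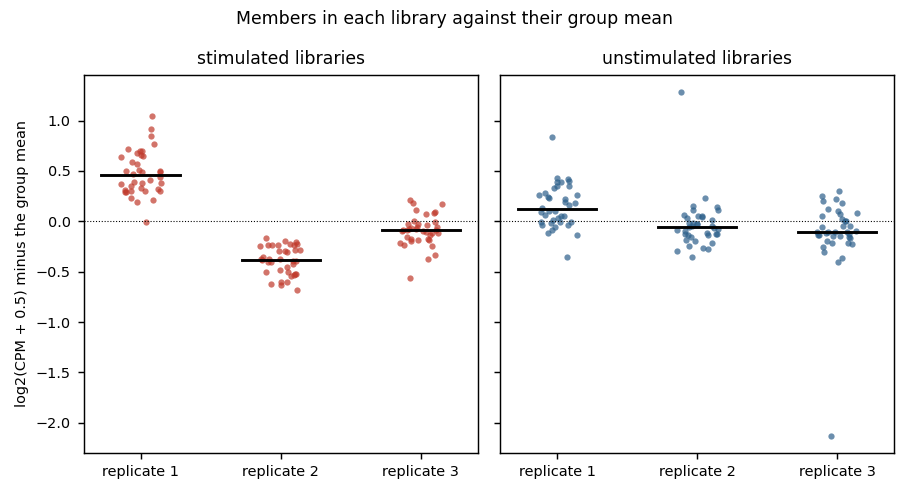
For each library, log2(CPM + 0.5) of the 38 tested members minus the mean of their group, stimulated libraries on the left and unstimulated on the right, with 1 point per gene and the median as a bar. Points of stimulated replicate 1 lie mostly above 0 and those of stimulated replicate 2 below it. The low point in unstimulated replicate 3 is Ifi204.

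Of 9 tested receptor, kinase and ISGF3 genes 3 rose, 4 fell and 2 did not pass (median log2 fold change -0.077), shares near the 38.4% and 39.1% of all tested genes. Both type I receptor chains fell, Ifnar1 to 76.0 ± 5.17 CPM in stimulated cells, against 176 ± 11.4 CPM in unstimulated cells, and Ifnar2 to 34.5 ± 3.48 CPM against 92.75 ± 7.23 CPM. The interferon gamma receptor chain Ifngr1 fell by 3.66 (SE 0.22; edgeR, adjusted p = 1.86e-06), to 25.1 ± 6.55 CPM in stimulated against 318 ± 52.5 CPM in unstimulated cells. Its partner chain Ifngr2 had 28.3, 29.65 and 30.6 CPM in stimulated and 34.85, 31.6 and 26.9 CPM in unstimulated libraries, with overlapping groups (edgeR, adjusted p = 0.502), and Ifnlr1 had too few reads to be tested. The kinase Jak1 fell by 1.66 and Jak2 rose by 2.41. Of ISGF3, Stat2 rose by 1.86 (SE 0.15) and Irf9 by 0.73 (SE 0.13). Stat2 had 323, 225.5 and 256 CPM in stimulated and 83.9, 67.1 and 70.45 CPM in unstimulated libraries, again highest in replicate 1.

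Of 11 adaptors and factors that lead to interferon production 4 rose, 3 fell and 4 did not pass (median log2 fold change -0.025), in neither direction a larger share than among all tested genes. Irf7, the amplifier of type I interferon genes, rose by 2.89 (SE 0.20), with 425, 248 and 297 CPM in stimulated and 44.8, 41.1 and 44.5 CPM in unstimulated libraries. The DNA sensor Cgas and the adaptor Traf3 rose by 1.56 and 1.502, while Tmem173, which encodes STING, and the kinase Ikbke fell by 0.97 and 0.96. Where 38.4% of all tested genes rose, all 5 tested enzymes of the Isg15 cycle did. They include Ube2l6, its conjugating enzyme (log2 fold change 3.04, SE 0.21), the ligase Herc6 (1.49) and the activating enzyme Uba7 (0.54; edgeR, adjusted p = 0.0349). Usp18, which removes Isg15 and restrains the receptor, rose by 5.43 (SE 0.33), with 257, 125 and 154 CPM against 4.55, 4.42 and 3.46 CPM at rest. Of 9 negative regulators of the pathway, Usp18 among them, 6 rose, 2 fell and 1 did not pass, beside 38.4% and 39.1% of all tested genes that rose and fell. Socs1 rose by 2.80 (SE 0.14), while Pias1 fell by 1.21 (SE 0.090) and Socs3 by 0.48.

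**Figure D5:**
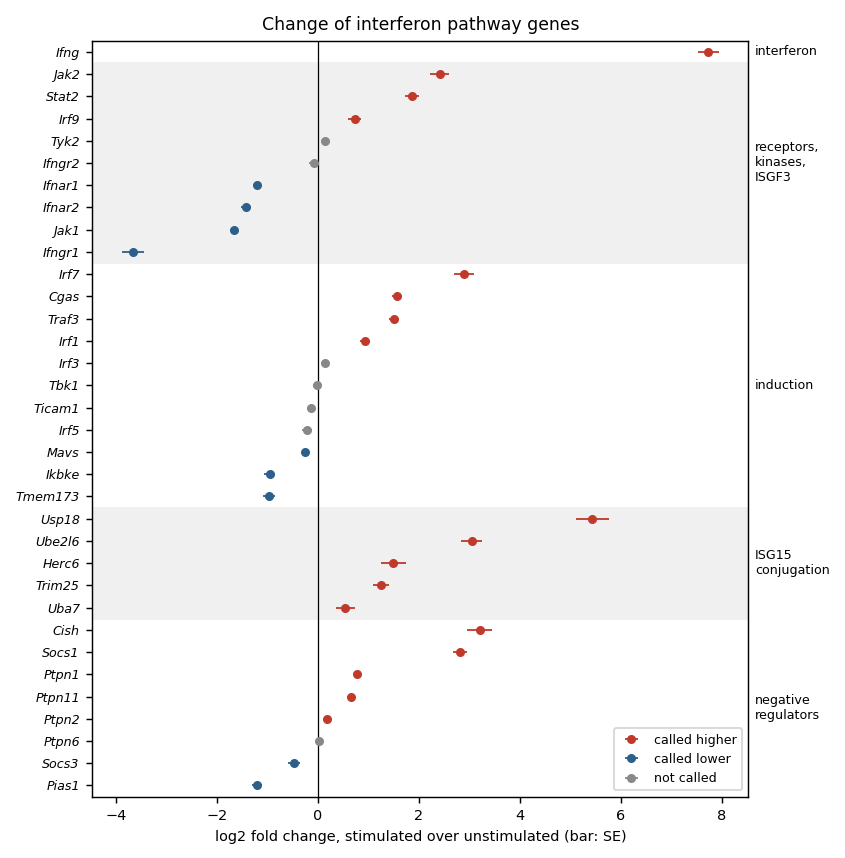
Log2 fold change of stimulated over unstimulated cells with its SE for tested genes of the interferon, signalling, induction, Isg15 cycle and negative regulator lists, with Usp18 drawn once. Red rose, blue fell and grey did not pass the test. Ifng is farthest right at 7.72 and Ifngr1 farthest left at -3.66, and the 5 Isg15 cycle genes all lie to the right of 0.

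A further list held 62 interferon-stimulated genes outside the members. Tests were possible for 52 of them, of which 33 rose, 10 fell and 9 missed the threshold. Their median log2 fold change was 1.10. For all tested genes, 38.4% rose and 39.1% fell, with a median of -0.043. The further list shares Usp18, Herc6, Uba7 and Ube2l6 with the Isg15 cycle. Daxx, a partner of nuclear bodies, rose by 2.10 (SE 0.15) and Ube2l6 by 3.04. The myelin-linked enzyme Cnp fell by 1.55 (SE 0.16), and Zc3hav1, which encodes the zinc-finger antiviral protein ZAP, by 1.16 (SE 0.13). Zc3hav1 had 336, 245 and 262 CPM in stimulated and 687, 630.5 and 564 CPM in unstimulated libraries, without overlap. Stimulated replicate 1 was highest for 42 of the 52 tested genes of that list, against 37.1% of all tested genes.

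The libraries held 29897720 to 30252923 counted reads, so 3 reads corresponded to 0.0992 to 0.100 CPM. The stimulus was seen in Il2, which averaged 251 ± 54.0 CPM in stimulated and 0.4745 ± 0.117 CPM in unstimulated cells, and in Cd69. Summed markers of T cells came to 1996 to 2142 CPM in stimulated and 3852 to 4102 CPM in unstimulated libraries. Summed markers of plasmacytoid dendritic cells, the main makers of type I interferon, were 0.654 to 0.842 CPM in stimulated and 2.54 to 3.44 CPM in unstimulated libraries, and Siglech, Klk1 and Clec4b1 had no read. Conventional dendritic cell markers summed to 5.895 to 7.97 CPM after stimulation and 1.38 to 2.32 CPM at rest, with Clec9a and Cd209a at 0. Among the 4 tested, 3 rose and 1 fell (median log2 fold change 2.14). Myeloid markers summed to 26.3 to 53.1 CPM in stimulated and 8.10 to 10.3 CPM in unstimulated libraries, chiefly Mpeg1 (23.05 to 49.3 CPM in stimulated libraries), with S100a8 at 0. Of the 5 tested myeloid markers Mpeg1 alone rose, Itgam and Adgre1 fell, and the median log2 fold change was -0.59. B cell markers summed to 732 to 1281 CPM in stimulated and 1416 to 2869 CPM in unstimulated libraries. All 8 were tested, and 7 fell while 1 did not pass (median log2 fold change -1.39). Natural killer markers summed to 58.2 to 112 CPM in stimulated and 1.885 to 19.65 CPM in unstimulated libraries, nearly all Eomes, which T cells also express, while Ncr1 and Klrb1c had 0 to 3 reads in each library. In stimulated replicate 1, where most members were highest, the T cell, cytotoxic T cell, myeloid, conventional dendritic and natural killer sums were highest too and the B cell sum was lowest. The part of these cells in the results was not tested.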

How the data were processed

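The authors deposited unnormalised gene-level read counts, 1 column for each of the 6 libraries, under Ensembl identifiers. The submitters' processing notes list GRCm38 and the tools HTSeq, DESeq2 and STAR 2.5.2a, with no role for any. The sources used here do not give the strand setting, annotation release or read filters. The labels' protocols name column extraction of total RNA and a TruSeq RNA preparation. Reads of overlapping, antisense or near-identical genes can therefore not be told apart. Shared 50-base words were counted on GENCODE M21 transcripts.

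edgeR 4.0.16 in R 4.3.3 was run on the whole table, with TMM scaling, filterByExpr on the group, robust dispersions and the quasi-likelihood test, two-sided, with group as the only term and Benjamini-Hochberg adjustment. The filter kept 13314 genes. The SE came from the change and the F statistic. CPM used TMM-scaled library sizes, and TPM unscaled counts over union exon lengths. The procedure was tested on simulated data. Values for every library are given for the 3 called members with the smallest p in each role, for those tested and not called, and for any with no read in a group. In the other lists the 2 genes with the smallest p in each direction are named, beside a few regulators; Ifi211, Ifnar1, Ifngr1, Herc6 and Uba7 were added after their values were seen. Members and lists were chosen with earlier results of these data known. Of the list genes, Mb21d1, Mnda and Pyhin1 were matched through RefSeq synonyms. A few genes of those lists are not reported here and were left out of the list counts. Alternatives were RLE, library size alone or without the 20 most abundant genes, no filter, 1 CPM in 3 libraries, DESeq2 1.42.0, limma-voom (limma 3.58.1), the replicate number as a block, an adjusted p of 0.01, and leaving out each library or replicate number. Deviations from the group means of same-numbered libraries correlated at 0.442, 0.132 and 0.472 over the tested genes. The labels do not state pairing. The replicate number was a model term in the replicate block alone, and not in the main fit. No 2 libraries of a group agreed within counting noise (dispersion index 9.41 to 37.6, where counting noise alone gives about 1). Counting intervals and floors cover counting error only. Tables and figures used Python 3.11.15 with pandas 2.3.3, numpy 2.4.6, scipy 1.17.1 and matplotlib 3.10.9.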

Additional observations from a re-analysis of the deposited data

How the results depend on the processing

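Across 18 alternatives the number of members that rose ran from 30 (replicate block) to 34 (DESeq2), against 31, and the number past 2-fold from 23 to 28, against 26. Their median log2 fold change ran from 2.11 to 2.53. The counts of all tested genes that rose or fell kept within 1.5 times of 5113 and 5207. Library size alone shifted the median of all tested genes by -0.14 and leaving the 20 most abundant genes out of library sizes by -0.15, and RLE by 0.022. The number of members that fell, 0, became 1 (Ifi27l2a) with library size alone, without the 20 most abundant genes and with the replicate block. It ran from 0 to 2 on leaving out libraries or replicate numbers, with 2 (Ifit1bl1 and Sp100) without stimulated replicate 1 or without replicate 1. The log2 fold change of Ifit1bl1, -0.12, changed sign on leaving out libraries, where it ran from -0.67 to 0.14. The cause was not tested. Of the 38 tested members, 29 kept their side of the threshold and their sign under every alternative. The replicate block moved no count by more than 1.5 times other than that of members that fell, and changed the calls of Ifit2, Samd9l, Dtx3l and Ifi27l2a among the members, with no other call changed. At 3 libraries a group, members that did not pass are not shown to be equal, and Oas1g, with 7 reads in all, could not be tested at this depth.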
